A study of Homo sapiens with 10 samples.

Results

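Acetylation of lysine 27 on histone H3 (H3K27ac), a mark of promoters and enhancers in use, was examined by ChIP-seq at 43 genes of the ATF4 pathway and the unfolded protein response in H1975 cells. The genes were chosen by name, and a region was counted for a gene where the deposited annotation assigned it that symbol. This gave 181 regions at 42 of the 43 genes, out of 67387 annotated regions and 169637 counted regions. PDIA3, a disulfide isomerase of the endoplasmic reticulum (ER), had no assigned region. Each region was 502 bp wide. By the distance class in the annotation, 93 regions were promoter regions (within 1 kb of a transcription start site), 19 lay in the promoter classes from 1 to 3 kb, called flanking regions here, and 69 were distal (introns, exons, untranslated regions and intergenic sequence). All 181 passed the filter on low counts.

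NCI-H1975 is an established human lung adenocarcinoma line with a mutant EGFR. Chromatin was compared between 3 groups of 3 biological replicates each. The DMSO group grew without drug for 21 days and was then given the solvent DMSO for 3 days. The osimertinib DTP group received 500 nM osimertinib, an EGFR tyrosine kinase inhibitor, for 24 days. The osimertinib DTP + AZD5153 group received 500 nM osimertinib for 21 days and after that 150 nM AZD5153, an inhibitor of the BET bromodomain proteins that bind acetylated histones, for 3 days. The labels did not state whether osimertinib was kept during those last 3 days. All groups were grown as the same line in culture, and 1 pooled input library served the whole series.

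The unfolded protein response is started by 3 sensors in the ER membrane: PERK (the product of EIF2AK3), IRE1 (ERN1) and ATF6. PERK phosphorylates the translation factor eIF2α, which lowers protein synthesis and favours translation of ATF4. ATF4, often paired with C/EBP proteins, drives amino acid genes and, with CHOP (DDIT3), stress genes such as TRIB3 and DDIT4, while IRE1 splices XBP1 mRNA and ATF6 is cleaved, so that both factors drive chaperone and ER-associated degradation genes.

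Both kinds of target carry known promoter elements, and the sequences below show them in the members where they were found, because H3K27ac was counted at these promoters. RefSeq windows from 250 bases upstream to 50 bases downstream of the start (GRCh38) were held for 39 of the 43 genes and were searched on both strands. The ER stress element, CCAAT followed by 9 bases and CCACG, which binds NF-Y with ATF6 or XBP1, was found in 7 members (HSPA5, HSP90B1, XBP1, PDIA6, CALR, CANX and CRELD2), against 25 of 27305 genes with a window (0.0916%) and 0.0769% of 35116 windows. The ATF4 and C/EBP element, TGATGNAA, was found in 4 members (ASNS, CHAC1, CEBPG and HERPUD1), against 1217 of those genes (4.46%) and 3.62% of windows. The match is a description of the sequence and not of binding. The 250 bases upstream of the start are printed 5′ to 3′ along the gene for 4 genes, and capitals mark the element. For HSPA5 they lie at chr9:125241344-125241593 on the minus strand, for HSP90B1 at chr12:103930160-103930409 on the plus strand with 2 elements, for ASNS at chr7:97872409-97872658 on the minus strand, and for CHAC1 at chr15:40953221-40953470 on the plus strand, where the element reads on the strand opposite to the gene.
HSPA5: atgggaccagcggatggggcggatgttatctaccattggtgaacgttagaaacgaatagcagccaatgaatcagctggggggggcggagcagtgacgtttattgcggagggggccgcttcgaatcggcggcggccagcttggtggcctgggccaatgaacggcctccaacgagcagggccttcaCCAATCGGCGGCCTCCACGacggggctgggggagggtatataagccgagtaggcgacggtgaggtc
HSP90B1: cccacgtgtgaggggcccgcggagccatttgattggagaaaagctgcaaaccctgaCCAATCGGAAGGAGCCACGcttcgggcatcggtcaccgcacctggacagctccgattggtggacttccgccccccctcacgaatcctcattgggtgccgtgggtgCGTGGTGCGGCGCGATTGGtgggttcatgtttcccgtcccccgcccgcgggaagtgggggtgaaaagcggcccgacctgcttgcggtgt
ASNS: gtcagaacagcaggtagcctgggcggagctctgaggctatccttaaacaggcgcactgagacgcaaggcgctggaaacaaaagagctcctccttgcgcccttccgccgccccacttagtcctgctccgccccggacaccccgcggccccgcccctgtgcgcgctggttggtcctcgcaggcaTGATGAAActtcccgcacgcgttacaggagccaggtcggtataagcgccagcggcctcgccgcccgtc
CHAC1: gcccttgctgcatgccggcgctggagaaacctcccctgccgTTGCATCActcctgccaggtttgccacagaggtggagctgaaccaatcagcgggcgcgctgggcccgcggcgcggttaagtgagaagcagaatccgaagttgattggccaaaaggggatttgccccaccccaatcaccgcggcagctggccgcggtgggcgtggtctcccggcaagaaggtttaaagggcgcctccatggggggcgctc

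For the other members with the ER stress element only the element is shown, 5′ to 3′ in the sense of the motif. XBP1 had it at chr22:28800603-28800621, PDIA6 at chr2:10812853-10812871, CALR at chr19:12938384-12938402, CANX at chr5:179698778-179698796 and CRELD2 at chr22:49918554-49918572. The gene and the motif point the same way in XBP1, PDIA6 and CANX and opposite ways in CALR and CRELD2.
XBP1: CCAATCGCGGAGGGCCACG
PDIA6: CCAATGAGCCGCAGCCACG
CALR: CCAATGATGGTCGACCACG
CANX: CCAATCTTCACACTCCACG
CRELD2: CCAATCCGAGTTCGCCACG

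A counted region covered the element at HSPA5, ASNS, CHAC1 and CEBPG, and the member's region overlapped part of it at PDIA6 and CALR. At XBP1, HSP90B1, CANX, CRELD2 and HERPUD1 the counted regions lay beside it.

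The 9 H3K27ac libraries held 6263443 to 10463351 counts and the input 1870885. Levels are given as CPM, counts scaled to the library total after trimmed mean (TMM) scaling. In 2 libraries, osimertinib DTP replicate 2 and osimertinib DTP + AZD5153 replicate 3, promoter regions took 59.8% and 66.7% of the annotated counts, against 40.3% to 45.9% in the other libraries. They are called the promoter-rich libraries, and the fold changes of members' highest-count promoter regions are given with and without them. Promoter regions of the epithelial genes KRT8, KRT18, KRT19, EPCAM, CDH1 and NKX2-1 were counted in every library, while PTPRC, CD3E, PECAM1 and MYH11 had none. CDH5 and COL1A2, genes of other lineages, had 2 promoter regions each, with 75 to 247 and 9 to 169 counts.

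The members' promoters followed these 2 libraries. The 93 promoter regions summed to 1229, 1549 and 1237 CPM in DMSO, to 1307, 3125 and 1184 CPM in osimertinib DTP and to 1330, 1430 and 2844 CPM in osimertinib DTP + AZD5153. Within each drug group the promoter-rich library was far above both of its replicates, and the other libraries of the drug groups lay within the range of DMSO or, at 1184 CPM, below it. Among the 41 members with a promoter region, the highest-count promoter was highest in osimertinib DTP replicate 2 at 40 genes, with a median ratio of 3.10 to the mean of the other replicates, and in osimertinib DTP + AZD5153 replicate 3 at 35 genes, with a median ratio of 2.74. Over all 93 member promoter regions these libraries were the highest of their group at 78.5% and 71.0%, with median ratios of 2.38 and 1.93. Over all promoter regions of the series the shares were 78.5% and 68.9%, with median ratios of 2.16 and 2.01.

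**Figure D1:**
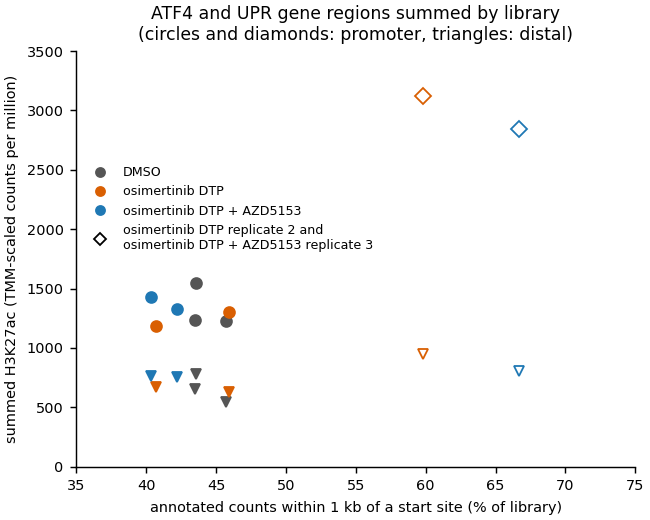
Summed CPM of the members' promoter regions and distal regions (vertical axis, triangles for distal) against the share of annotated counts at promoter regions in each library (horizontal axis, percent), for the 9 libraries coloured by group. The 2 promoter-rich libraries, at 59.8% and 66.7%, hold 3125 and 2844 CPM at member promoters, and the other 7 hold 1184 to 1549.

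The distal sums lay closer together. The 69 distal regions summed to 548, 777 and 656 CPM in DMSO, to 627, 952 and 669 CPM in osimertinib DTP and to 757, 761 and 804 CPM in osimertinib DTP + AZD5153. The 3 groups overlapped. In these bulk libraries, acetylation in fewer cells and less acetylation per cell cannot be told apart.

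Against DMSO, no promoter region assigned to a member passed the test in osimertinib DTP, and the members' calls lay in flanking and distal regions. Within 1 kb of a member's RefSeq start, 2 regions assigned to other genes were called, at GDF15 and DNAJB11, and are described below. Of the 181 regions, 8 were called higher and 4 lower at an adjusted p under 0.05 (edgeR quasi-likelihood test, adjusted over all 157919 tested regions). Over all tested regions 5.58% were called higher and 5.13% lower, and the members' calls were below that share in both directions. The calls were 0 of 93 promoter regions, 2 higher among the 19 flanking regions, and 6 higher and 4 lower among the 69 distal regions. Over all annotated regions, 2.78% of promoter regions were called higher and 1.85% lower, 6.90% and 7.36% of flanking regions, and 9.79% and 10.8% of distal regions. The higher calls were at EIF2AK3 (3), ATF6, GDF15, STC2, DNAJB11 and DNAJB9, and the lower calls at DNAJC3 (2), STC2 and VLDLR.

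The comparison of osimertinib DTP + AZD5153 with DMSO called 9 regions higher and 10 lower. Over all tested regions 9.05% were called higher and 9.01% lower. Of the promoter regions 0 were higher and 2 lower, of the flanking regions 1 and 1, and of the distal regions 8 and 7. Over all annotated regions 5.32% of promoter regions were called higher and 3.18% lower, of flanking regions 10.6% and 12.7%, and of distal regions 14.3% and 16.1%. This comparison shares its DMSO libraries with the one before it. Its lower calls included 3 regions of TRIB3, 2 of DDIT4 and 1 of MTHFD2.

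Between osimertinib DTP + AZD5153 and osimertinib DTP no member region was called higher or lower, and 0% of all tested regions was called in either direction. At an unadjusted p under 0.05 there were 3 member regions and 7013 regions of the whole table, and DESeq2 called 0 member regions with 8 at an unadjusted p under 0.05. No difference was detectable at this spread between replicates, which does not show that the levels were equal.

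The calls changed in number when libraries were left out. With both promoter-rich libraries left out, an analysis chosen after the data were seen, 20 regions were higher and 12 lower in osimertinib DTP than in DMSO, against 14.9% and 12% of all tested regions, and 38 were higher and 24 lower in osimertinib DTP + AZD5153, against 22.8% and 19.8%. Between the drug groups 0 were higher and 2 lower, both at DDIT4, against 1.13% and 0.982%. All 12 regions called in the first comparison and all 19 in the second were also called, in the same direction, without these libraries. Leaving out 1 library at a time, the direction held at all 12 and all 19. Of the 12 calls, 4 remained without DMSO replicate 1, 0 without DMSO replicate 2 or 3, 9, 2 and 2 without osimertinib DTP replicates 1, 2 and 3, and 10, 12 and 12 without osimertinib DTP + AZD5153 replicates 1, 2 and 3. Of the 19 calls, 12, 7 and 5 remained without DMSO replicates 1, 2 and 3, 15, 18 and 15 without osimertinib DTP replicates 1, 2 and 3, and 11, 14 and 19 without osimertinib DTP + AZD5153 replicates 1, 2 and 3.

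**Figure D2:**
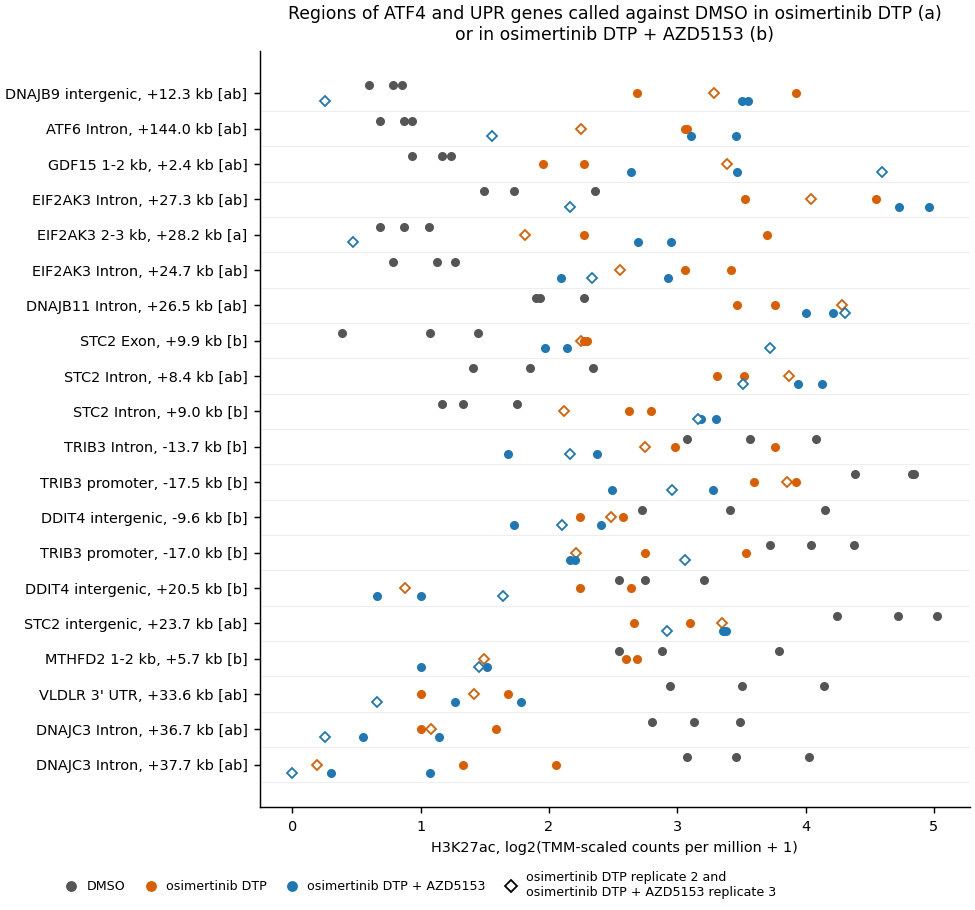
H3K27ac level, log2(CPM + 1), in each of the 9 libraries at the 20 member regions called in either comparison with DMSO. Regions are ordered by the sum of their log2 fold changes in both comparisons and labelled with the distance from the RefSeq start. [a] marks a call in osimertinib DTP against DMSO, [b] a call in osimertinib DTP + AZD5153 against DMSO, and open diamonds mark the promoter-rich libraries. The open diamond of the last group lies among the DMSO points at the EIF2AK3 region 27339 bp into the gene. It lies below them at the DNAJB9 region and the EIF2AK3 region 28194 bp into the gene. At the ATF6 region and the EIF2AK3 region 24726 bp into the gene it lies above them.

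As a set, the promoters' fold changes turned on the promoter-rich libraries. The median log2 fold change of the 93 promoter regions against DMSO was 0.45 in osimertinib DTP and 0.53 in the AZD5153 group, with 70 and 67 regions above 0. Over all promoter regions the medians were 0.35 and 0.42, with 70.5% and 70.6% above 0. Without the 2 libraries the members' medians were -0.01 and 0.12, with 45 and 55 of 93 above 0, and those of all promoter regions -0.18 and 0.08. Against DMSO the members' promoters thus had medians a little above those of all promoters in either setting. Whether these gaps exceed the spread between libraries was not tested. With all libraries, the pooled SD of the members' median levels within groups was 0.40 and 0.26 in log2 units. That SD holds the shift of the promoter-rich libraries, which promoters of the whole series shared. It therefore does not measure the spread of the gaps. Between the drug groups the members' median was lower than that of all promoters. It was -0.05, with 38 of 93 above 0, against 0.08 and 58.1%. Without the 2 libraries it was 0.16, with 54 of 93 above 0, against 0.28 and 66.3%. The gap between the drug groups was not tested either.

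The distal medians moved less, and the flanking median in the AZD5153 group moved up. Distal medians against DMSO were 0.19 and 0.27 with all libraries and 0.09 and 0.33 without the promoter-rich ones, with 37 to 40 of 69 regions above 0 in these fits. All distal regions of the series had medians of -0.06 and 0.03, and of -0.13 and 0.25 without those libraries. Flanking regions had medians of 0.56 and 0.41, and of 0.31 and 0.93 without the 2 libraries, against 0.04 and 0.05, and -0.03 and 0.03, for all flanking regions. The interquartile range of the distal log2 fold changes against DMSO ran from -0.40 to 1.22 in osimertinib DTP and from -0.45 to 0.97 in the AZD5153 group, so distal regions lay on both sides of 0.

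**Figure D3:**
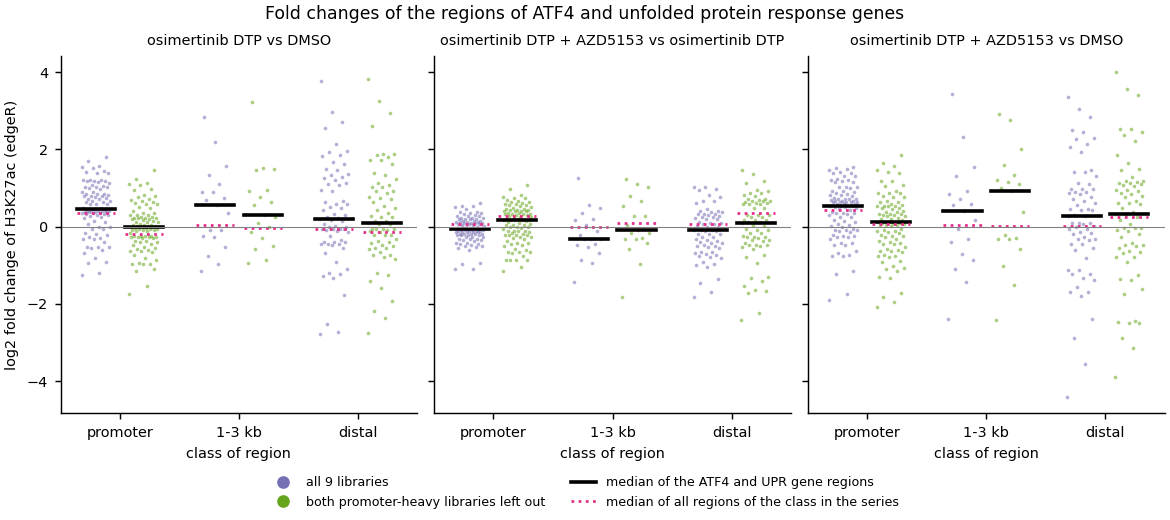
Log2 fold changes of the 181 member regions by distance class (promoter, flanking, distal) in each of the 3 comparisons, once with all 9 libraries and once without both promoter-rich libraries; each point is a region, the bar is their median and the dotted line is the median over all annotated regions of the class. The promoter medians against DMSO fall from 0.45 to -0.01 and from 0.53 to 0.12 when the 2 libraries are left out.

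Among the transcription factors, ATF4, ATF5, XBP1 and DDIT3 had promoters among the 5 highest of the 41 by mean CPM over all libraries, while CEBPB and CEBPG ranked 29 and 27. At the promoter region of ATF4 itself (chr22:39519671-39520172, 387 bp before the RefSeq start), the level was 28.2, 46.9 and 34.8 CPM in DMSO, 33.0, 82.2 and 27 CPM in osimertinib DTP and 32.8, 39.9 and 92.0 CPM in osimertinib DTP + AZD5153. The groups overlapped and each drug group was high in its promoter-rich library alone. The log2 fold changes against DMSO were 0.37 ± 0.56 (SE, adjusted p = 0.748) and 0.58 ± 0.56 (adjusted p = 0.518), and -0.26 and 0.07 without those libraries. DDIT3, which encodes CHOP, gave 32.4, 53.0 and 41.8 CPM in DMSO, 36.2, 86.4 and 54.9 CPM in osimertinib DTP and 40.3, 59.7 and 63.8 CPM in osimertinib DTP + AZD5153. Its log2 fold change in osimertinib DTP was 0.48 ± 0.49 (adjusted p = 0.599), or 0.12 without those libraries. XBP1, the substrate of IRE1, gave 33.6, 34.0 and 25.5 CPM, then 39.5, 97.3 and 23.3 CPM, then 38.8, 39.3 and 131 CPM in the 3 groups. The promoter-rich libraries were again far above all others, and the log2 fold changes of 0.78 and 1.16 were 0.04 and 0.41 without them.

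CEBPG, a C/EBP partner of ATF4 with a match to its element 35 to 42 bases before its own start, had a lower promoter. The level was 6.35, 9.40 and 7.74 CPM in DMSO, 10.0, 44.0 and 8.76 CPM in osimertinib DTP and 10.4, 16.8 and 41.4 CPM in osimertinib DTP + AZD5153. Its log2 fold changes were 1.41 ± 0.68 (adjusted p = 0.201) and 1.54 ± 0.68 (adjusted p = 0.129), and 0.29 and 0.88 without the promoter-rich libraries. A neighbouring CEBPG promoter region (chr19:33374165-33374666) was called higher in osimertinib DTP + AZD5153 only without those libraries, at 1.39 (adjusted p = 0.0111). None of the 10 promoter regions of ATF4, ATF5, XBP1, DDIT3, CEBPB and CEBPG was called with all libraries, and their median log2 fold changes were 0.63 and 0.74 against DMSO, or 0.08 and 0.25 without the promoter-rich libraries.

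The promoters of the highest level in DMSO were those of DDIT3 at 42.4 ± 10.3 CPM (SD, n = 3), HSPA5 at 41.1 ± 8.97, ATF5 at 39.0 ± 9.52 and ATF4 at 36.6 ± 9.47, which differed by less than 1 SD from each other. The lowest of the members' highest-count promoter regions were GDF15 at 4.01 ± 1.44 CPM and CRELD2 at 5.01 ± 0.415 CPM, which differed by less than the SD at GDF15. All regions had the same width, so these levels are per 502 bp.

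**Figure D4:**
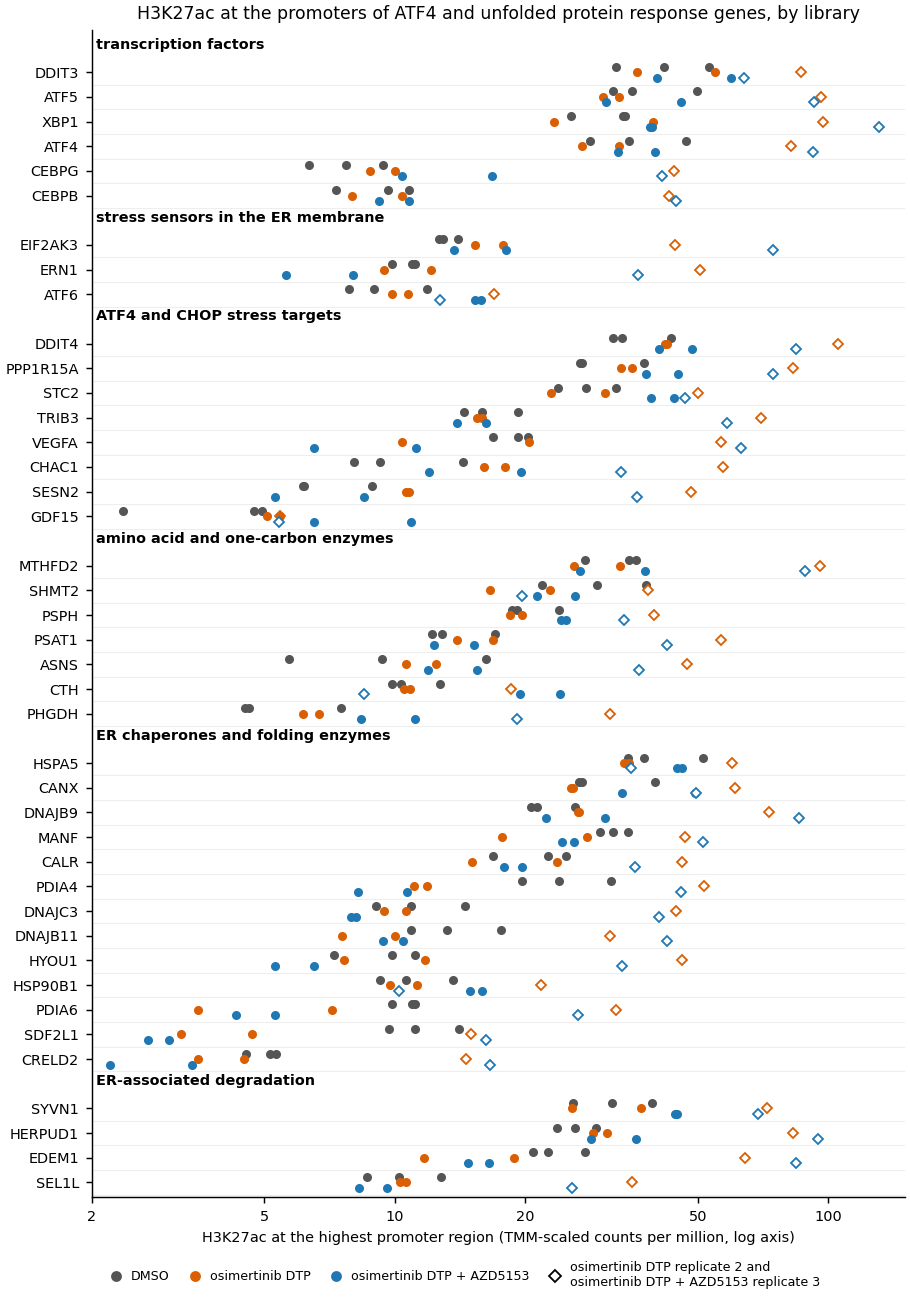
CPM (log axis) of the highest-count promoter region of each of the 41 members with one, in every library, ordered by role; open diamonds mark the promoter-rich libraries. In DMSO the levels run from 4.01 CPM at GDF15 to 42.4 CPM at DDIT3, and the open diamonds lie highest in their group at 40 and 35 of the 41 genes.

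At the 3 stress sensors the calls lay inside the genes. Their promoter regions were not called, and the distal regions of EIF2AK3 and ATF6 held 3 of the 6 higher distal calls in osimertinib DTP. All 7 distal regions of these genes had a log2 fold change above 0 against DMSO in both drug groups, with medians of 1.67 and 1.93, and of 1.86 and 2.22 without the promoter-rich libraries, when 6 and 5 of the 7 were called higher, against 20.6% and 31.9% of all distal regions. All 7 lie in EIF2AK3 or ATF6, and neighbouring regions of a gene are not independent of each other. Summed per gene, these distal regions were not called by the same test with all libraries. The adjusted p was 0.106 and 0.0852 at EIF2AK3 and 0.146 and 0.268 at ATF6. In both sums osimertinib DTP + AZD5153 replicate 3 was below every DMSO library. It had 12.1 CPM against 17.6 to 19.3 at EIF2AK3, and 4.04 CPM against 8.40 to 10.3 at ATF6.

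EIF2AK3, which encodes PERK, had 4 intronic regions and 1 flanking region between 24026 and 28194 bp into the gene. The intronic region chr2:88602237-88602738 had 1.18, 0.723 and 1.41 CPM in DMSO, 7.36, 4.87 and 9.67 CPM in osimertinib DTP and 6.61, 3.26 and 4.06 CPM in osimertinib DTP + AZD5153. Every library of both drug groups was above every DMSO library, and peaks were called there in 0 of 3 DMSO and 3 of 3 libraries of each drug group. Relative to DMSO the log2 fold changes were 2.71 ± 0.60 (adjusted p = 0.00993) and 2.06 ± 0.59 (adjusted p = 0.0226). The first call was lost without DMSO replicate 2 or 3 (highest adjusted p = 0.0849), and the second without any 1 DMSO library or osimertinib DTP + AZD5153 replicate 1 (highest 0.124). At chr2:88599624-88600125 the level was 1.81, 4.13 and 2.31 CPM in DMSO, 10.5, 15.4 and 22.4 CPM in osimertinib DTP and 25.4, 30.1 and 3.48 CPM in osimertinib DTP + AZD5153. The promoter-rich library of the last group lay among the DMSO libraries, whereas all others of the drug groups were above them. In log2 units the changes against DMSO were 2.55 ± 0.71 (adjusted p = 0.0301) and 2.84 ± 0.72 (adjusted p = 0.0126). The first was lost without any 1 DMSO library and without osimertinib DTP replicate 2 or 3 (highest 0.146), the second without DMSO replicate 1 or 3 (highest 0.0737).

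The flanking region chr2:88598769-88599270 of EIF2AK3, placed by the annotation 2912 bp from a start site but 28194 bp into the RefSeq gene, had 1.09, 0.826 and 0.603 CPM in DMSO, 3.82, 2.50 and 12 CPM in osimertinib DTP and 6.71, 5.47 and 0.387 CPM in osimertinib DTP + AZD5153. The osimertinib DTP libraries were all above DMSO, at a log2 fold change of 2.84 ± 0.83 (adjusted p = 0.0361, or 0.0814 with a replicate block). The call was lost without any 1 DMSO library and without osimertinib DTP replicate 2 or 3 (highest 0.209). In the last group the promoter-rich library was below DMSO and the comparison gave 2.32 ± 0.82 (adjusted p = 0.0577). By contrast the EIF2AK3 promoter had 14, 12.9 and 12.7 CPM in DMSO, 17.8, 44.4 and 15.3 CPM in osimertinib DTP and 18, 13.7 and 74.4 CPM in osimertinib DTP + AZD5153. Its log2 fold changes of 0.97 and 1.42 were 0.35 and 0.34 without the promoter-rich libraries.

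ATF6, the sensor that is cleaved to a transcription factor, had an intronic region 143977 bp into the gene (chr1:161910297-161910798). Its level was 0.907, 0.826 and 0.603 CPM in DMSO, 7.36, 3.76 and 7.45 CPM in osimertinib DTP and 7.61, 10.0 and 1.93 CPM in osimertinib DTP + AZD5153. All drug-group libraries were above all DMSO libraries, with peaks in 0, 3 and 2 libraries of the groups. The log2 fold changes were 2.97 ± 0.67 (adjusted p = 0.0117, lost without DMSO replicate 2 or 3, highest 0.0826) and 3.05 ± 0.67 (adjusted p = 0.00636, kept without any 1 library, highest 0.0486). The ATF6 promoter at its start had 8.98, 11.9 and 7.84 CPM, then 10.7, 17 and 9.87 CPM, then 15.3, 15.8 and 12.8 CPM. The libraries of the last group were all above DMSO, but the log2 fold change of 0.61 ± 0.51 was not called (adjusted p = 0.445), nor was 0.78 without the promoter-rich libraries. Both ATF6 promoter regions upstream of it were called higher in that comparison without the promoter-rich libraries, at 1.46 (adjusted p = 0.0134) and 1.18 (adjusted p = 0.0197). In that fit 14.7% of all promoter regions were called higher.

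ERN1, which encodes IRE1, had no distal region. Its promoter gave 11, 11.2 and 9.86 CPM in DMSO, 12.1, 50.7 and 9.47 CPM in osimertinib DTP and 5.61, 8.03 and 36.3 CPM in osimertinib DTP + AZD5153. In the last group the libraries lay on either side of DMSO, and the log2 fold change of 0.63 ± 0.73 was -0.57 (adjusted p = 0.254) without the promoter-rich libraries.

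**Figure D5:**
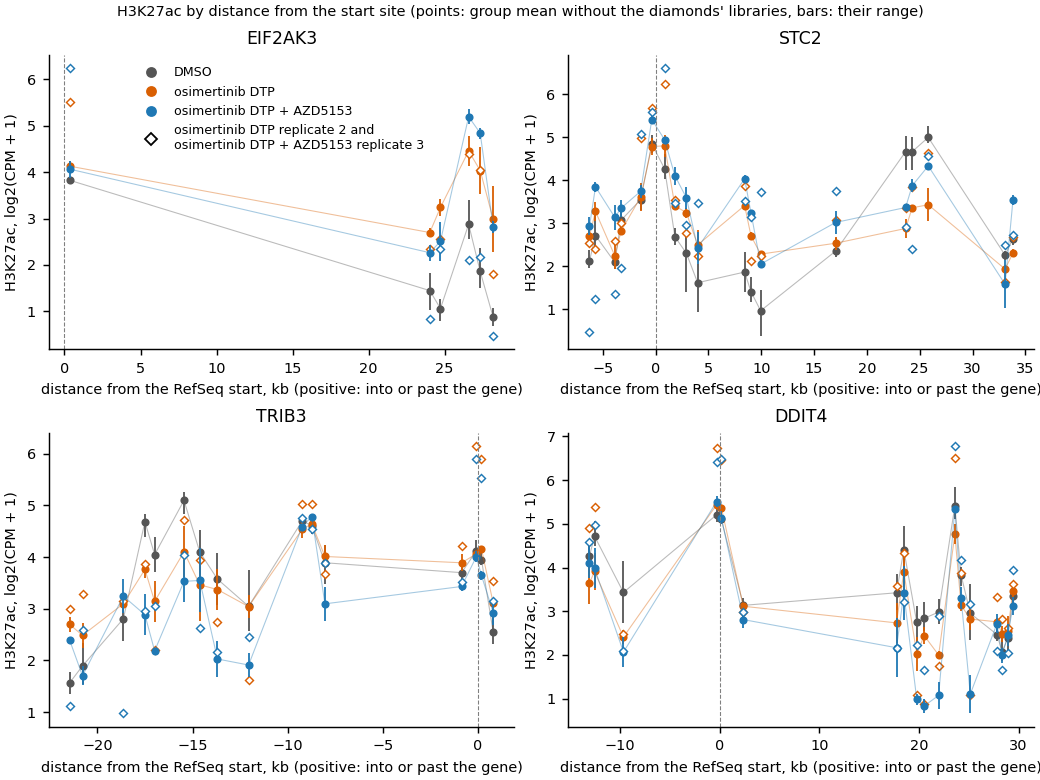
Mean CPM per group at all assigned regions of EIF2AK3, STC2, TRIB3 and DDIT4 by distance from the RefSeq start (kb, along the gene), without the 2 promoter-rich libraries; bars span the libraries and the thin lines only join the points. At the called regions the drug-group means lie above DMSO inside EIF2AK3 and STC2, and osimertinib DTP + AZD5153 lies below DMSO upstream of TRIB3 and on both sides of DDIT4.

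Among the ATF4 and CHOP stress targets, single regions moved in both directions and no promoter region assigned to them within 1 kb of a RefSeq start was called. Their 27 promoter regions had medians of 0.74 (osimertinib DTP) and 0.64 (osimertinib DTP + AZD5153), with 0 and 2 calls, both lower. Over the promoter regions of the whole series, 1.85% and 3.18% passed as lower against DMSO and 2.78% and 5.32% as higher. The 43 distal regions of these stress targets had medians of -0.06 and -0.05. By the test 1 rose and 2 fell in osimertinib DTP, while 3 rose and 5 fell in osimertinib DTP + AZD5153. Distal regions of the whole series passed at 9.79% (higher) and 10.8% (lower), then at 14.3% and 16.1%. Each distal count, taken over the 43 regions, was below its share.

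TRIB3, the pseudokinase that restrains ATF4 and AKT, had 3 lower regions in osimertinib DTP + AZD5153, all upstream of the RefSeq start. Region chr20:363289-363790, in the promoter class of the annotation but 17505 bp before the RefSeq start, had 19.9, 27.7 and 27.4 CPM in DMSO, 11.1, 13.5 and 14.2 CPM in osimertinib DTP and 4.61, 8.73 and 6.76 CPM in osimertinib DTP + AZD5153. The 3 groups did not overlap and descended in that order. The log2 fold change was -0.95 ± 0.51 in osimertinib DTP (adjusted p = 0.255) and -1.90 ± 0.53 in osimertinib DTP + AZD5153 (adjusted p = 0.0195), and -0.95 ± 0.52 between the drug groups, which was not called. The second was lost without DMSO replicate 2 or 3 or osimertinib DTP + AZD5153 replicate 1 (highest 0.102). Region chr20:363800-364301 had 15.5, 12.2 and 19.8 CPM, then 5.74, 3.62 and 10.6 CPM, then 3.61, 3.49 and 7.34 CPM in the 3 groups, and chr20:367103-367604 had 7.44, 10.8 and 15.9 CPM, then 6.88, 5.71 and 12.6 CPM, then 2.20, 4.19 and 3.48 CPM. In both the last group was below DMSO in every library. They gave -1.73 ± 0.58 (adjusted p = 0.0469) and -1.79 ± 0.57 (adjusted p = 0.0379). Both were also called without osimertinib DTP replicate 2 or osimertinib DTP + AZD5153 replicate 3, and were lost without any other 1 library (highest 0.177 and 0.186).

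The promoter of TRIB3 at its RefSeq start did not share this. It had 14.4, 19.2 and 15.9 CPM in DMSO, 15.9, 70.0 and 15.5 CPM in osimertinib DTP and 13.9, 16.3 and 58.6 CPM in osimertinib DTP + AZD5153. Outside the promoter-rich libraries every value lay between 13.9 and 19.2 CPM. Relative to DMSO the log2 fold changes were 1.03 ± 0.67 and 0.84 ± 0.67, and -0.05 in both comparisons without those libraries.

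DDIT4, an mTORC1 inhibitor, had 18 regions, of which 15 were distal. At chr10:72294450-72294951, 20526 bp past the start and outside the gene, the level was 5.71, 4.85 and 8.25 CPM in DMSO, 3.73, 0.835 and 5.24 CPM in osimertinib DTP and 1.00, 0.582 and 2.13 CPM in osimertinib DTP + AZD5153. The last group was below every DMSO library. Its log2 fold change was -2.39 ± 0.71 (adjusted p = 0.027), lost without any 1 DMSO library and without osimertinib DTP + AZD5153 replicate 1 or 2 (highest 0.11). At chr10:72263784-72264285, 9639 bp before the start, it had 5.62, 16.7 and 9.65 CPM in DMSO, 4.97, 4.59 and 3.73 CPM in osimertinib DTP and 2.30, 4.30 and 3.29 CPM in osimertinib DTP + AZD5153. The log2 fold change was -1.69 ± 0.57 (adjusted p = 0.047), called without DMSO replicate 1 or osimertinib DTP + AZD5153 replicate 3 and lost without any other 1 library (highest 0.262).

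The first of these DDIT4 regions, and chr10:72299075-72299576 near it, were the 2 members called between the drug groups without the promoter-rich libraries, at -2.42 (adjusted p = 0.0335) and -2.23 (adjusted p = 0.044). The latter had 4.97, 1.11 and 7.35 CPM in osimertinib DTP and 1.90, 0.582 and 7.92 CPM in osimertinib DTP + AZD5153, so both promoter-rich libraries went against the other 2 of their group, and with all libraries the log2 fold change was -0.43. The DDIT4 promoter was among the most acetylated of the members, at 31.9, 43.5 and 33.4 CPM in DMSO, 42.4, 105 and 42.1 CPM in osimertinib DTP and 48.5, 40.7 and 84.5 CPM in osimertinib DTP + AZD5153. It was not called (0.80 ± 0.52, adjusted p = 0.36, and 0.67 ± 0.52, adjusted p = 0.401), and the fold changes were 0.25 and 0.37 without the promoter-rich libraries.

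STC2, a secreted glycoprotein induced by ATF4, had regions that rose inside the gene and 1 that fell beyond its end. Intronic region chr5:173319481-173319982 had 4.08, 1.65 and 2.61 CPM in DMSO, 8.89, 13.6 and 10.5 CPM in osimertinib DTP and 14.3, 16.5 and 10.4 CPM in osimertinib DTP + AZD5153. The groups did not overlap with DMSO. In log2 units the changes against DMSO were 1.97 ± 0.56 (adjusted p = 0.0309, lost without any 1 library of DMSO or osimertinib DTP, highest 0.18) and 2.30 ± 0.56 (adjusted p = 0.0103, lost without DMSO replicate 2 or 3, highest 0.0831). The neighbouring intronic region chr5:173318880-173319381 had 2.36, 1.24 and 1.51 CPM, then 5.16, 3.34 and 5.94 CPM, then 8.12, 8.84 and 7.92 CPM in the 3 groups. The exonic region chr5:173317965-173318466 had 1.72, 0.310 and 1.11 CPM, then 3.92, 3.76 and 3.83 CPM, then 3.41, 2.91 and 12.2 CPM. At both, every drug-group library was above DMSO, and osimertinib DTP + AZD5153 was called, at 2.27 ± 0.55 (adjusted p = 0.0103) and 2.51 ± 0.71 (adjusted p = 0.0221), and both calls were lost without DMSO replicate 2 or 3 (highest 0.076 and 0.116). In osimertinib DTP they gave 1.49 ± 0.55 (adjusted p = 0.0863) and 1.85 ± 0.70 (adjusted p = 0.0982).

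The intergenic region chr5:173304244-173304745, 23669 bp from the STC2 start, went the other way. It had 18, 31.6 and 25.3 CPM in DMSO, 7.55, 9.18 and 5.34 CPM in osimertinib DTP and 9.22, 9.42 and 6.57 CPM in osimertinib DTP + AZD5153. Every drug-group library was below every DMSO library. The log2 fold changes were -1.76 ± 0.53 (adjusted p = 0.0403) and -1.57 ± 0.53 (adjusted p = 0.0465), and each was called in 2 of 9 fits that left out 1 library, the first without osimertinib DTP + AZD5153 replicate 2 or 3 and the second without osimertinib DTP replicate 2 or osimertinib DTP + AZD5153 replicate 3, and lost in the others (highest 0.212 and 0.193). The STC2 promoter overlapped between groups, with log2 fold changes of 0.31 and 0.63, or -0.03 and 0.65 without the promoter-rich libraries.

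GDF15, a stress-induced cytokine, had 10 regions, and its highest-count promoter region had the lowest level among those of the 41 members. At its flanking region chr19:18388525-18389026, 2367 bp into the gene, the level was 1.36, 1.24 and 0.905 CPM in DMSO, 2.87, 9.46 and 3.83 CPM in osimertinib DTP and 10.0, 5.24 and 23.2 CPM in osimertinib DTP + AZD5153. Both drug groups were above DMSO in every library. Relative to DMSO the log2 fold changes were 2.18 ± 0.68 (adjusted p = 0.0477, or 0.0844 with a replicate block) and 3.43 ± 0.70 (adjusted p = 0.00432). The first was called in 2 of 9 fits that left out 1 library, those without osimertinib DTP + AZD5153 replicate 2 or 3 (highest 0.206), and the second in all 9 (highest 0.0362). Without the promoter-rich libraries they were 1.53 and 2.76.

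A further region over the GDF15 gene was assigned by the annotation to the microRNA gene MIR3189, which lies inside it, and was looked at after its values were seen. At chr19:18386456-18386957, 298 bp past the GDF15 start, the DMSO libraries held 40, 46 and 66 counts, those of osimertinib DTP 155, 310 and 266 counts and those of osimertinib DTP + AZD5153 336, 299 and 251 counts. The drug groups lay above DMSO in every library, at log2 fold changes of 2.49 (adjusted p = 0.0112) and 2.96 (adjusted p = 0.00314). Fits that left out 1 library are not given for this region. Over the 39 members with a RefSeq start, 87 regions lay within 1 kb of a RefSeq start and 2 of these were called, this one and a region before the start of DNAJB11 described below; both were assigned to another gene.

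VLDLR, a lipoprotein receptor and PERK and ATF4 target, had 1 assigned region, in the class of the 3′ untranslated region (chr9:2655376-2655877), which also lies in the gene LOC105375957. It had 6.71, 16.6 and 10.4 CPM in DMSO, 2.20, 1.67 and 1.01 CPM in osimertinib DTP and 1.40, 2.44 and 0.580 CPM in osimertinib DTP + AZD5153. Every drug-group library was below DMSO, with peaks in 3, 0 and 1 libraries of the groups. In log2 units the changes against DMSO were -2.78 ± 0.64 (adjusted p = 0.0123, lost without DMSO replicate 2 or 3 or osimertinib DTP replicate 2 or 3, highest 0.0997) and -2.88 ± 0.64 (adjusted p = 0.00673, lost without DMSO replicate 2, at 0.0518). The regions at the VLDLR start were not assigned to a gene and were not called.

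The other stress targets were not called with all libraries. SESN2, a leucine sensor that restrains mTORC1, had a log2 fold change in osimertinib DTP at its highest-count promoter region of 1.71 ± 0.75 (adjusted p = 0.152), from 6.17, 8.88 and 6.13 CPM in DMSO and 10.6, 48.3 and 10.8 CPM in osimertinib DTP, and it was 0.62 without the promoter-rich libraries. CHAC1, a glutathione-degrading enzyme, gave 8.07, 14.4 and 9.25 CPM in DMSO and 16.1, 57.2 and 17.9 CPM in osimertinib DTP at the region over its ATF4 and C/EBP element. The osimertinib DTP libraries were all above DMSO, but the log2 fold change of 1.52 ± 0.61 was not called (adjusted p = 0.119), nor was 0.71 without the promoter-rich libraries (adjusted p = 0.155). The neighbouring CHAC1 promoter region chr15:40953354-40953855 had the largest promoter log2 fold change of these targets, 1.81 ± 0.64 (adjusted p = 0.0778), or 0.96 without them.

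At VEGFA, the angiogenic growth factor, the direction of the promoter turned with the libraries kept. The level was 20.3, 16.8 and 19.2 CPM in DMSO, 20.4, 56.6 and 10.4 CPM in osimertinib DTP and 11.2, 6.52 and 63.0 CPM in osimertinib DTP + AZD5153. Apart from its promoter-rich library, the last group was below DMSO. With all libraries its log2 fold change was 0.51 ± 0.75 (adjusted p = 0.69), and without the promoter-rich ones it was -1.01 (adjusted p = 0.0324), with 2 further VEGFA promoter regions called lower at -1.16 (adjusted p = 0.0377) and -1.72 (adjusted p = 0.00921). In that fit 10 of the 93 member promoter regions and 12.7% of all promoter regions were called lower.

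The enzymes of serine, one-carbon and amino acid synthesis, classical ATF4 targets, gave 1 call, at a region 5705 bp into MTHFD2. Their 16 promoter regions had median log2 fold changes of 0.84 and 0.65 against DMSO, and of 0.07 and 0.26 without the promoter-rich libraries. ASNS, asparagine synthetase, whose single region covers the element shown above, had 5.71, 16.2 and 9.35 CPM in DMSO, 10.6, 47.2 and 12.5 CPM in osimertinib DTP and 11.9, 15.5 and 36.5 CPM in osimertinib DTP + AZD5153. Its DMSO libraries alone spanned a range that held every drug-group value outside the promoter-rich libraries. The log2 fold change in osimertinib DTP was 1.16 ± 0.67 (adjusted p = 0.294), or 0.17 without them.

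PHGDH, the first enzyme of serine synthesis, had a log2 fold change of 1.40 ± 0.66 (adjusted p = 0.19), or 0.23 without the promoter-rich libraries, at its highest-count promoter region, one that the annotation placed at a start site 63182 bp upstream of the RefSeq start. Another of its promoter regions, chr1:119712932-119713433, had the largest of the enzymes, 1.58 ± 0.63 (adjusted p = 0.115), or 1.46 without them. SHMT2, mitochondrial serine hydroxymethyltransferase, gave -0.20 ± 0.51, or -0.57 without them, from 21.9, 38.0 and 29.4 CPM in DMSO and 16.6, 38.4 and 22.9 CPM in osimertinib DTP. At MTHFD2, a mitochondrial folate enzyme, region chr2:74204320-74204821 had 6.35, 4.85 and 12.9 CPM in DMSO, 5.07, 1.81 and 5.44 CPM in osimertinib DTP and 1.00, 1.86 and 1.74 CPM in osimertinib DTP + AZD5153. The last group was below DMSO in every library, at -2.39 ± 0.64 (adjusted p = 0.0164), lost without DMSO replicate 3 or osimertinib DTP + AZD5153 replicate 1 (highest 0.113).

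CTH, the cystathionine lyase that makes cysteine, was called at none of its 5 regions with all libraries. Without the promoter-rich libraries its 3 promoter regions were called higher in osimertinib DTP + AZD5153 than in DMSO, at 1.07 (adjusted p = 0.0137), 1.57 (adjusted p = 0.003) and 1.85 (adjusted p = 0.000768). In that fit 10 of the 93 member promoter regions and 14.7% of all promoter regions were called higher. CTH is named here because its values had been seen. The region at its start had 6.17, 6.09 and 2.41 CPM in DMSO, 8.80, 12.9 and 11.7 CPM in osimertinib DTP and 12.3, 15.4 and 8.50 CPM in osimertinib DTP + AZD5153. All drug-group libraries were above DMSO there, the promoter-rich ones included. A distal region 75512 bp past the start (chr1:70486780-70487281) had 2.63, 2.58 and 1.51 CPM in DMSO, 6.79, 5.98 and 4.73 CPM in osimertinib DTP and 1.20, 2.33 and 1.35 CPM in osimertinib DTP + AZD5153. It stood above both other groups in osimertinib DTP in every library, though no comparison called it with all libraries (1.37, adjusted p = 0.12 against DMSO, and a log2 fold change of -1.83 between the drug groups).

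The ER chaperones and folding enzymes had the smallest promoter medians of the roles against DMSO, 0.26 and 0.16 over 25 promoter regions. Without the promoter-rich libraries these were -0.26 and -0.37, with 3 and 6 of 25 above 0 and 3 and 5 regions called lower. Over all promoter regions 36.7% and 53.9% were above 0 and 8.81% and 12.7% called lower in the same fits. HSPA5, which encodes the chaperone BiP, had its highest-count promoter region at chr9:125241625-125242126, 282 bp before the RefSeq start. This region had 37.5, 51.3 and 34.5 CPM in DMSO, 33.8, 60.0 and 34.7 CPM in osimertinib DTP and 44.7, 46.0 and 35.2 CPM in osimertinib DTP + AZD5153. All groups overlapped, and the promoter-rich library of the last group was the lowest of its group. The log2 fold changes were 0.06 ± 0.47 (adjusted p = 0.961) and 0.03 ± 0.47 (adjusted p = 0.976), or -0.24 and 0.22 without the promoter-rich libraries.

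SDF2L1, a cofactor of BiP, had the lowest log2 fold changes of the chaperone promoters in osimertinib DTP. Its highest-count promoter region had 9.70, 14 and 11.2 CPM in DMSO, 4.68, 15.0 and 3.22 CPM in osimertinib DTP and 2.71, 3.02 and 16.2 CPM in osimertinib DTP + AZD5153. In each drug group the promoter-rich library stood above DMSO and the others below it. Relative to DMSO the log2 fold changes were -0.61 and -0.69 with all libraries, neither called, and -1.52 (adjusted p = 0.00926) and -1.94 (adjusted p = 0.000976) without the promoter-rich ones. PDIA4, a disulfide isomerase, had the same order, with 19.7, 31.5 and 23.9 CPM in DMSO, 11.9, 51.8 and 11.1 CPM in osimertinib DTP and 8.22, 10.7 and 45.8 CPM in osimertinib DTP + AZD5153, and gave -0.01 and -0.22, or -1.10 (adjusted p = 0.0205) and -1.32 (adjusted p = 0.00394). PDIA6, whose region reaches into its ER stress element, gave 0.42 and 0.16, or -0.96 (adjusted p = 0.0956) and -1.07 (adjusted p = 0.0456). At these regions the call thus rested on which libraries were kept. The other promoter regions of these genes were also below 0 in both comparisons with all libraries, none called. SDF2L1 gave -1.19 and -1.15 there (adjusted p = 0.201 and 0.183), PDIA4 -0.54 and -0.76 (adjusted p = 0.613 and 0.386) and PDIA6 -0.29 and -0.25 (adjusted p = 0.81 in both). HYOU1, an ER chaperone of the HSP70 class, had the largest log2 fold change of the group, 1.20 ± 0.75, or 0.07 without the promoter-rich libraries.

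Distal regions of 3 co-chaperones of the DnaJ class were called. DNAJB9 had an intergenic region 12298 bp past its start (chr7:108582172-108582673) with 0.726, 0.516 and 0.805 CPM in DMSO, 5.45, 8.77 and 14.2 CPM in osimertinib DTP and 10.7, 10.4 and 0.193 CPM in osimertinib DTP + AZD5153. All libraries of the drug groups were above DMSO except the promoter-rich one of the last group, which held 1 count. In log2 units the changes against DMSO were 3.77 ± 0.89 (adjusted p = 0.0146, lost without any 1 DMSO library or osimertinib DTP replicate 2 or 3, highest 0.0999) and 3.37 ± 0.88 (adjusted p = 0.0153, lost without any 1 DMSO library, highest 0.0854). DNAJB11 had a region 26511 bp past its start and outside the gene, over the pseudogene PET100P1 (chr3:186597231-186597732), with 2.72, 3.82 and 2.82 CPM in DMSO, 10.0, 18.5 and 12.6 CPM in osimertinib DTP and 17.5, 15.0 and 18.7 CPM in osimertinib DTP + AZD5153. The groups did not overlap with DMSO. The log2 fold changes were 2.13 ± 0.54 (adjusted p = 0.0186, lost without any 1 DMSO library or osimertinib DTP replicate 2 or 3, highest 0.124) and 2.45 ± 0.54 (adjusted p = 0.00622, lost without DMSO replicate 3, at 0.0548).

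At the start of DNAJB11 a region assigned to the neighbouring gene TBCCD1 (chr3:186569911-186570412), found after its values were seen, went the other way. The DMSO libraries held 48, 55 and 45 counts, those of osimertinib DTP 11, 13 and 13 counts and those of osimertinib DTP + AZD5153 38, 24 and 12 counts. The osimertinib DTP libraries were below every DMSO library, at -1.81 (adjusted p = 0.0472), and the last group gave -0.69 (adjusted p = 0.409). Fits that left out 1 library are not given for this region either.

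DNAJC3, which encodes P58IPK, an inhibitor of PERK, had 2 intronic regions that fell. Region chr13:95713875-95714376, 36736 bp into the gene, had 5.99, 10.2 and 7.74 CPM in DMSO, 2.01, 1.11 and 1.01 CPM in osimertinib DTP and 1.20, 0.465 and 0.193 CPM in osimertinib DTP + AZD5153. Region chr13:95714790-95715291 had 7.44, 15.3 and 9.96 CPM, then 3.15, 0.139 and 1.51 CPM, then 1.10, 0.233 and 0 CPM. Both were below DMSO in every drug-group library, and at the first, peaks were called in 3, 0 and 0 libraries of the groups. The log2 fold changes in osimertinib DTP were -2.51 ± 0.63 (adjusted p = 0.0186, lost without DMSO replicate 2 or 3 or osimertinib DTP replicate 2 or 3, highest 0.117) and -2.72 ± 0.83 (adjusted p = 0.043, or 0.0525 with a replicate block, lost without any 1 DMSO library or osimertinib DTP replicate 2 or 3, highest 0.186). In osimertinib DTP + AZD5153 they were -3.56 ± 0.68 (adjusted p = 0.00304) and -4.41 ± 0.93 (adjusted p = 0.00515), and both were called without any 1 library (highest 0.0258 and 0.0322). The DNAJC3 promoter, at 10.9, 14.6 and 9.05 CPM in DMSO, was not called (0.90 ± 0.72 and 0.71 ± 0.72), and gave -0.17 and -0.44 without the promoter-rich libraries.

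Genes of ER-associated degradation, which returns misfolded proteins to the cytosol, had no call with all libraries at their 9 promoter, 2 flanking and 2 distal regions. HERPUD1, a component of the degradation complex, had 26.1, 29.1 and 23.6 CPM in DMSO, 30.9, 82.9 and 28.7 CPM in osimertinib DTP and 28.4, 36.1 and 94.7 CPM in osimertinib DTP + AZD5153 at its promoter, at 0.85 ± 0.57 and 1.01 ± 0.57, or 0.21 and 0.37 without the promoter-rich libraries. EDEM1, a lectin of the same pathway, gave 0.42 ± 0.70 and 0.70 ± 0.71, or -0.60 and -0.52. Neither was called in any of these fits.

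Summed per gene, few members passed the test. The promoter regions and, apart from them, the distal regions of each gene were added up, which gave 59 sums for the members among 20438 tested. In osimertinib DTP against DMSO 0 were higher and 1 lower, the distal sum of VLDLR, which holds the single region above, at -2.80 ± 0.61 (adjusted p = 0.0258, or 0.071 with a replicate block). Over all sums 3.96% were called higher and 4.9% lower. In osimertinib DTP + AZD5153 0 were higher and 2 lower, VLDLR at -3.01 (adjusted p = 0.0131) and DNAJC3 at -4.15 ± 0.90 (adjusted p = 0.016), against 6.77% and 8.72% over all sums. Between the drug groups 0 were called, as over all sums (0%), with 2 at an unadjusted p under 0.05 and 0 called by DESeq2. The VLDLR call in osimertinib DTP was lost without DMSO replicate 2 or 3 or any 1 osimertinib DTP library (highest adjusted p = 0.111), and both calls in osimertinib DTP + AZD5153 were lost without DMSO replicate 2 or 3 (highest 0.0585 and 0.0594). No promoter sum was called in any comparison.

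Other genes of these pathways, 41 in a list made beside the members, of which 38 had 141 regions, gave 4 higher and 9 lower calls in osimertinib DTP against DMSO (5.58% and 5.13% of all tested regions), 8 and 15 in the AZD5153 group against DMSO (9.05% and 9.01%), and 0 between the drug groups. Of their 74 promoter regions, 2 were called higher and 0 lower in osimertinib DTP, against 2.78% and 1.85% of all promoter regions. The 2 were at ATF3 and NUPR1. ATF3, a stress-induced factor of the ATF family, had 28, 48 and 25 counts in DMSO, then 74, 223 and 102, then 77, 91 and 117 in the drug groups, at a promoter region (chr1:212607919-212608420), at a log2 fold change of 2.27 ± 0.67 in osimertinib DTP (adjusted p = 0.0387). NUPR1, a stress-response regulator, had 115, 73 and 56 counts, then 249, 297 and 182, then 291, 147 and 164 at its promoter, at 1.82 ± 0.55 (adjusted p = 0.0406). SLC7A5, a leucine transporter and ATF4 target, gave 2.10 ± 0.56 (adjusted p = 0.0246) at a flanking region. At ATF3 and NUPR1 every drug-group library was above DMSO. Fits that left out a DMSO library are not given for these other genes. Of the 12 member calls in osimertinib DTP against DMSO, 0 remained without DMSO replicate 2 or 3. The lower calls were at SLC6A9 (a glycine transporter, 3 regions), EDEM2 (3 regions), CREB3L2 (2 regions) and SLC7A1 (1 region) in osimertinib DTP. The list was made with earlier results of these data known, so its counts are a description.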

How the data were processed

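H3K27ac ChIP-seq was carried out in NCI-H1975 cells, with 3 groups of 3 biological replicates and 1 pooled input. The paper supplied with the series does not describe this experiment. Per the submitters' processing notes, BWA 0.7.17, MACS2 2.2.6, featureCounts 2.0.0, ChIPseeker 1.29.1 and the build hg38 were named, without settings. The authors deposited raw read counts, not normalized, for 169637 regions of 502 bp, and an annotated table of 67387 of them with a gene symbol and distance class. The authors also deposited 1 peak list per library, called per library, whose fold enrichment ratio and −log10 p and q scores are relative to the input. These lists were used to count libraries with a peak over a region and to check that each list matched its own count column best.

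Groups were taken from the labels. Counts of all regions in the 9 libraries were fitted together in edgeR 4.0.16 (R 4.3.3) with filterByExpr at a minimum count of 10, TMM scaling and robust quasi-likelihood dispersion, and the 3 groups were compared pairwise. P-values were adjusted by Benjamini-Hochberg over all 157919 tested regions, and a call is an adjusted p under 0.05. Sums of promoter and of distal counts per gene were tested the same way. The input was not subtracted. The code was tested on simulated data. The totals per library, 6263443 to 10463351, set the precision: a region at 1 CPM rests on few counts. PCR duplicates could not be identified in counts, and counts at 75 nt reads and 502 bp regions have a limit of 1152 if duplicates were removed. The highest member count was 756.

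Regions were matched by symbol alone, so several neighbouring regions share a gene, and a region nearest to another gene's start was not counted for a member. Start distances and the promoter windows came from RefSeq (GRCh38). The members and lists were chosen with earlier results of these data known. Named regions were those with a call (up to 12 per comparison and direction), the highest-count promoter regions of ATF4, DDIT3, XBP1, ATF6, ERN1, EIF2AK3, HSPA5, ASNS, TRIB3, DDIT4 and VEGFA, those of largest and smallest log2 fold change per role in osimertinib DTP, and gene sums with a call. CHAC1, CTH, PDIA4, PDIA6, the second regions of CEBPG and SDF2L1, SDF2L1's levels without 2 libraries and the regions at RefSeq starts were described after their values were seen.

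Same-numbered replicates were checked for pairing by the correlation of their deviations from the group means. For osimertinib DTP against DMSO these were 0.358, 0.373 and 0.354, so the numbers were taken to pair these libraries and a replicate block is given where it ends a call. They were 0.296, -0.05 and -0.31 between the drug groups and 0.005, 0.534 and 0.337 for osimertinib DTP + AZD5153 against DMSO, where the numbers were not taken as pairs. Results were recomputed without the filter, with DESeq2 1.42.0, with plain library sizes in place of TMM, with a loess offset (span 0.3, limma 3.58.1), with annotated regions alone, with libraries of both groups alone, with a replicate block, with saturation-corrected counts, with each library left out, and, chosen after seeing the data, with both promoter-rich libraries left out.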

Additional observations from a re-analysis of the deposited data

How the results depend on the processing

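Of the 181 regions, the number called in osimertinib DTP against DMSO was 12 with all libraries, 32 without both promoter-rich libraries, 38 with the libraries of both groups alone and 8 without TMM. In osimertinib DTP + AZD5153 against DMSO it was 19, 29 with DESeq2, 62 without the promoter-rich libraries and 13 with the libraries of both groups alone, where 18 of the 19 kept their direction. Between the drug groups it was 0, or 2 without the promoter-rich libraries. Leaving out each library gave 0 to 41 calls in the first comparison (0 without DMSO replicate 2, 41 without osimertinib DTP + AZD5153 replicate 3), 0 to 0 between the drug groups and 5 to 41 in the last (5 without DMSO replicate 3, 41 without osimertinib DTP + AZD5153 replicate 3). Of the 59 gene sums, 1 was called in the first comparison, 11 with DESeq2, 17 without the promoter-rich libraries, 13 with the libraries of both groups alone, 4 with the loess offset, 2 with saturation-corrected counts and 0 with the replicate block. In the last comparison 2 were called, 9 with DESeq2, 19 without the promoter-rich libraries and 5 with the loess offset. Leaving out each library gave 0 to 13, 0 to 0 and 0 to 12 sums. The causes of these shifts were not tested, beyond the fewer libraries that some settings hold.

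With the replicate block, 9, 0 and 21 regions and 0, 0 and 2 gene sums were called in the 3 comparisons, in the order osimertinib DTP against DMSO, the drug groups, and osimertinib DTP + AZD5153 against DMSO. In the last, where the replicate numbers are not taken as pairs, the DNAJB9 region was lost under the block (adjusted p = 0.056).

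The promoter median against DMSO in osimertinib DTP was 0.45, or -0.0092 without the promoter-rich libraries; for osimertinib DTP + AZD5153 these were 0.53 and 0.12. Leaving out each library gave 0.020 to 0.82, -0.53 to 0.50 between the drug groups, and 0.027 to 0.70. The distal medians ranged from 0.085 to 0.40, -0.19 to 0.03 and 0.0071 to 0.40. The VEGFA promoter in osimertinib DTP + AZD5153 against DMSO reversed to -1.01 without the promoter-rich libraries (adjusted p = 0.0324). The median of all regions was 0.15, 0.06 and 0.23 in the 3 comparisons, against 0.03, 0.23 and 0.32 with DESeq2, 0.06, -0.09 and -0.02 without TMM, and 0.10, 0.23 and 0.35 with the loess offset. Under these 3 scalings the members' promoter medians stayed above 0 in both comparisons with DMSO (0.33, 0.33 and 0.30, then 0.53, 0.28 and 0.31), and between the drug groups the sign changed (0.07, -0.15 and 0.07). Regions at 1 CPM or less in DMSO rest on about 10 counts a library.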
